A study of Mus musculus with 6 samples.

Results

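Peptidylarginine deiminases are calcium-dependent enzymes that convert arginine residues of proteins into citrulline, which removes the positive charge of the side chain. The mouse has 5 such genes, *Padi1*, *Padi2*, *Padi3*, *Padi4* and *Padi6*, and all 5 were found among the 55536 genes of the deposited count table by the Ensembl identifiers that map to these symbols. Of the 5, 4 passed the low-count filter that kept 20622 genes, and *Padi6* did not. The family was picked on the rise of *Padi3* between the groups compared here. The values of its genes in that comparison are therefore a description and carry no test.

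Citrullination of keratins and of filaggrin, the protein that bundles keratin filaments and is later broken down into moisturizing amino acids, takes place in the upper layers of the epidermis. *Padi1* and *Padi3* are the enzymes best known for these substrates, and *Padi3* also acts on trichohyalin, the protein that hardens the inner root sheath of the hair follicle. *Padi2* is widely expressed in muscle, brain and other tissues. *Padi4* carries a nuclear localization signal, modifies histones and is abundant in neutrophils, and *Padi6* belongs to the egg.

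The libraries came from Epcam+ α6+ basal keratinocytes, sorted from the dorsal skin of mouse embryos at E16.5, and were made from total RNA after removal of rRNA, with 3 Ctrl and 3 TKO samples. Embryos of both groups were exposed to tamoxifen and carried floxed *Suv39h1* (*Suv39h1* f/f), floxed *Setdb1* (*Setdb1* f/f) and a constitutive deletion of *Suv39h2* (*Suv39h2*-/-), so that Ctrl embryos also lacked this methyltransferase. TKO embryos in addition carried *K14CreERT2*, a recombinase driven by the promoter of the basal keratin gene *Krt14* and switched on by tamoxifen, whereas Ctrl embryos had none. The 3 targeted genes encode enzymes that methylate histone H3 at lysine 9, a mark of silenced chromatin, and the comparison asks which genes change when this mark is lost. Recombination in this model is mosaic, so TKO samples can hold cells that kept the enzymes. Females were Ctrl replicate 1 and TKO replicate 2, and the other 4 samples came from males. Each library held between 102159175 and 136515436 counts. The labels do not say whether samples of a group came from separate litters, so p-values measure the spread between these samples. In sorted pools, fewer cells that express a gene and less RNA per cell cannot be told apart.

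The reads of the targeted genes checked the labels in part. *Setdb1* was at 126, 118 and 121 CPM (the usual depth-scaled counts, here with library sizes adjusted by the trimmed mean of M values, TMM) in Ctrl and at 95.3, 62.3 and 74.9 in TKO, with every TKO sample below every Ctrl sample. Its log2 fold change was -0.65 (SE 0.161), which did not pass the test over all genes (edgeR quasi-likelihood, Benjamini-Hochberg adjusted p = 0.286). By DESeq2 on the same genes its adjusted p was 0.0449, and by edgeR with no low-count filter 0.00498. It was 0.0545 by the DESeq2 default workflow and 0.128 by edgeR with the replicate number as a block. In each of these the log2 fold change was short of the threshold of 1 used for a call. The log2 fold change was -0.10 for *Suv39h1* and 0.11 for *Suv39h2*, and the groups overlapped for both. Counts per gene include reads from exons that a deletion leaves in place, so these levels do not measure recombination directly. All 8 basal keratinocyte markers were detected in every sample, with *Krt5* between 6994 and 12318 CPM and *Trp63*, the transcription factor p63, between 772 and 1117 CPM. The suprabasal keratin genes were at similar levels, *Krt1* between 6100 and 10073 CPM and *Krt10* between 5694 and 9475 CPM.

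The genes lie side by side on chromosome 4 within 225 kb. In GRCm39, as annotated by GENCODE vM39, they follow in the order *Padi6* (chr4:140454666-140469954), *Padi4* (chr4:140472808-140501939), *Padi3* (chr4:140512672-140537960), *Padi1* (chr4:140540291-140573089) and *Padi2* (chr4:140633647-140679897). The first 4 of these are on the minus strand, and *Padi2* is on the plus strand. The 250 bases before the start of *Padi3*, *Padi1* and *Padi4* are shown because these neighbours on the same strand had 3 different patterns: higher in TKO, overlapping between the groups, and lower in TKO. The sequences are from RefSeq (GRCm38.p6, all 5 genes matched), run 5′ to 3′ on the minus strand and end at the base before the RefSeq gene start. Their positions are chr4:140810649-140810898 for *Padi3*, chr4:140845779-140846028 for *Padi1* and chr4:140774204-140774453 for *Padi4*, in a build other than that of the gene positions above. The *Padi4* and *Padi3* windows lie further apart than the starts of these genes in GENCODE. If the builds differ here only by a shift, the RefSeq start of *Padi4* lies inside the gene as annotated by GENCODE. Capitals mark matches, on either strand, to the TATA box (TATAAA), the CCAAT box (CCAAT), the GC box (GGGCGG) and the AP-1 site (TGANTCA), none of which overlapped another.
Padi3: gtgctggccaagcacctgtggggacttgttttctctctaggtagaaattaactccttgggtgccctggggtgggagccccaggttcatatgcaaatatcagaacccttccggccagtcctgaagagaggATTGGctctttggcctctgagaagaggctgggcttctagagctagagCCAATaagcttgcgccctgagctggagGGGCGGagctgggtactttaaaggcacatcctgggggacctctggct
Padi1: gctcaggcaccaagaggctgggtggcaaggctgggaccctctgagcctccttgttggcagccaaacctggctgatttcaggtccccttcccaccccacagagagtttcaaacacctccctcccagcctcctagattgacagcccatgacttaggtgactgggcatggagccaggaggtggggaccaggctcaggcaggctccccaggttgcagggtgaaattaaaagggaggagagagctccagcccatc
Padi4: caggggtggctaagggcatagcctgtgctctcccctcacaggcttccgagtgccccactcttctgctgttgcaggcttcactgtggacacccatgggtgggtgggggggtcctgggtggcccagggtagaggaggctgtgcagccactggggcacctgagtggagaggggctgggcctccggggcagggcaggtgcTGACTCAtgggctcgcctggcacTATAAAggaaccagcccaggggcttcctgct
Positions of motifs are counted back from the RefSeq gene start. The sequence before *Padi3* held a CCAAT box on its minus strand at -121 to -117. Another lay on its plus strand at -74 to -70, and a GC box at -47 to -42. The sequence before *Padi4* held an AP-1 site at -54 to -48 and a TATA box at -31 to -26. None of the 4 motifs was found before *Padi1*. Of 32851 mouse promoter windows of the same length, 33.8% held a CCAAT box, 32.7% a GC box, 12.4% a TATA box and 6.75% an AP-1 site. These are matches of letters only, and no binding was measured here.

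*Padi3* was the member with the highest level in both groups and the one that was higher in TKO. Its counts were 122, 157 and 149 in the Ctrl samples and 820, 962 and 493 in the TKO samples. Scaled to depth, these were 1.23, 1.22 and 1.38 CPM in Ctrl and 6.97, 8.71 and 4.05 CPM in TKO. The Ctrl samples were nearly equal, the TKO samples spread over a wider range with TKO replicate 3 lowest, and the groups did not overlap. The mean rose from 1.28 ± 0.0922 CPM (SD, n = 3) to 6.58 ± 2.35 CPM, a ratio of 5.15, and the fitted log2 fold change was 2.36 (SE 0.337), rank 192 among 20622 tested genes. Even so, *Padi3* RNA in TKO was of ordinary abundance for these cells. Per kb of exon, its level stood at percentile 29.5 of the tested genes in Ctrl and at percentile 52.1 in TKO.

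*Padi1*, the other enzyme of epidermal keratin and filaggrin citrullination, had the second highest level in the family and did not differ between the groups beyond its spread. It was at 1.27, 0.929 and 0.733 CPM in Ctrl and at 0.960, 0.996 and 0.946 CPM in TKO. All 3 TKO values lay inside the Ctrl range. Its log2 fold change of -0.02 (SE 0.388) leaves room for a moderate change in either direction. *Padi1* starts 35.1 kb upstream of the *Padi3* start on the same strand, so these neighbours with related skin substrates had unlike values in the same samples.

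*Padi2* was near the lower end of detection. Its counts were 8, 26 and 39 in Ctrl and 8, 42 and 22 in TKO, or 0.0808, 0.201 and 0.362 CPM and 0.0680, 0.380 and 0.181 CPM. The groups overlapped over almost their whole ranges. The log2 fold change was -0.04 with an SE of 0.873, so only a large change of *Padi2* could have stood out from the spread between these samples.

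*Padi4*, the nuclear member, went the other way from *Padi3*. Its counts were 39, 86 and 57 in Ctrl and 6, 2 and 21 in TKO, which is 0.394, 0.666 and 0.529 CPM against 0.0510, 0.0181 and 0.173 CPM. Every TKO sample was below every Ctrl sample, and TKO replicate 2, at 2 counts, was under the floor of 3 counts used here as the smallest detectable level. The means were 0.529 ± 0.136 CPM and 0.0806 ± 0.0814 CPM (SD, n = 3), a ratio of 0.152. The fitted log2 fold change was -2.69 (SE 0.821), rank 20597 of 20622. With 1 sample left out it lay between -3.89 (without TKO replicate 3) and -2.23 (without TKO replicate 2). *Padi4* rested on few reads, and it did not pass the threshold for a call.

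*Padi6*, the egg member, was at the floor. Its counts were 5, 3 and 2 in Ctrl and 4, 23 and 0 in TKO. A single sample, TKO replicate 2, held most of the *Padi6* reads of its group, and the other 5 samples held between 0 and 5. No change of *Padi6* between the groups can be read from these counts.

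**Figure D1:**
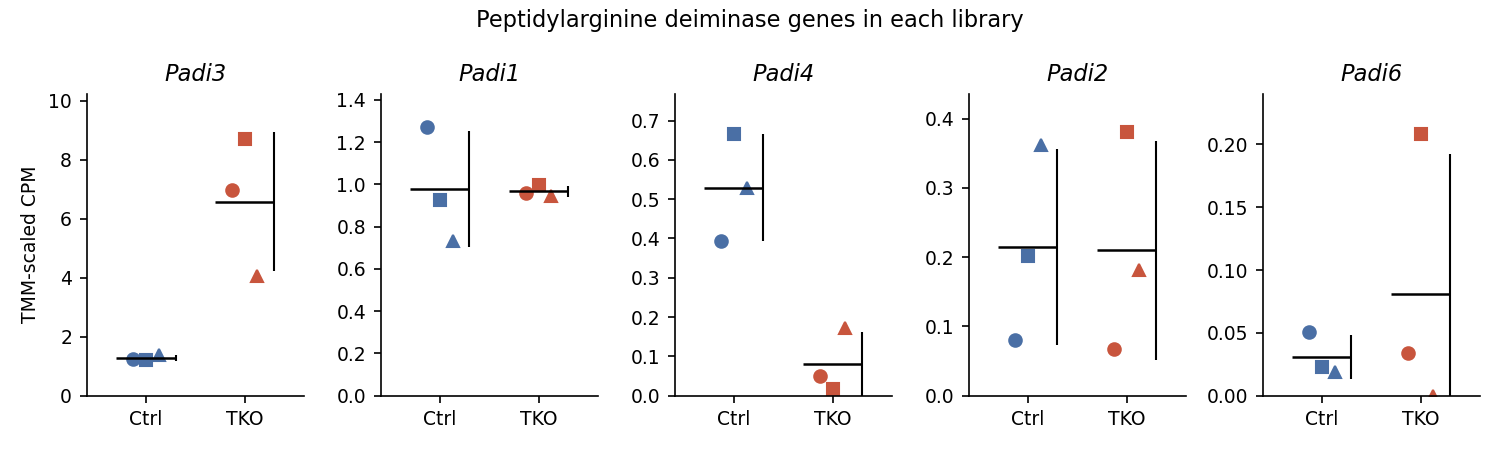
Each panel shows 1 gene, with TMM-scaled CPM on the vertical axis (linear, from 0, its scale differing between panels) and the Ctrl and TKO samples as points (circle, square and triangle for replicates 1, 2 and 3). Horizontal lines are group means and vertical lines span 1 SD on either side, ended at 0: the groups are apart for *Padi3* (4.05 CPM or more in TKO, 1.38 or less in Ctrl) and for *Padi4*, and overlap for the other 3 genes.

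A gene was called when its adjusted p-value was under 0.05 and its absolute log2 fold change above 1. By edgeR, 1 of the 4 tested Padi genes, *Padi3*, was called higher in TKO, beside 0.131% of all tested genes (27 genes, or 44 with the replicate block, which kept *Padi3* and all 27). None was called lower, beside 0% of all tested genes, although 416 genes were lower at an unadjusted p-value under 0.05. DESeq2 also called *Padi3* alone, with 0.936% of all tested genes called higher and 0.102% called lower. All TKO samples were above all Ctrl samples for 1 of the 4 (6.35% of all tested genes) and below for 1 of the 4 (5.11%). Since *Padi3* was chosen from this comparison, these shares describe the family and are not evidence about it. *Padi3* was called in 7 of 14 alternative analyses and lost its call when any sample other than TKO replicate 3 was left out, when sex was a term or when at least 10 counts were required in every library, with a log2 fold change between 2.11 and 2.62 in all of them.

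Per length of merged exons, the order in Ctrl was *Padi3* (0.370 ± 0.0267 CPM per kb, SD, n = 3), *Padi1* (0.260 ± 0.0727), *Padi4* (0.0935 ± 0.0240), *Padi2* (0.0422 ± 0.0277) and *Padi6* (0.0121 ± 0.00681). *Padi3* and *Padi1* stood apart from each other only narrowly, with a lowest *Padi3* value of 0.352 and a highest *Padi1* value of 0.339. The ranges of *Padi4* and *Padi2* overlapped, as did those of *Padi2* and *Padi6*. In TKO the order was *Padi3* (1.91 ± 0.682), *Padi1* (0.257 ± 0.00692), *Padi2* (0.0412 ± 0.0311), *Padi6* (0.0319 ± 0.0441) and *Padi4* (0.0142 ± 0.0144). The ranges of *Padi2* and *Padi6* overlapped in TKO, with *Padi2* above *Padi6* in 1 of 3 samples, and so did those of *Padi6* and *Padi4*. The mean of *Padi4* was thus above those of *Padi2* and *Padi6* in Ctrl and the lowest in TKO. Levels per length depend on the gene model most for *Padi4*, which came to 0.175 CPM per kb in Ctrl with its longest transcript in place of merged exons.

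The make-up of the family changed with the level of *Padi3*. Summed over the 5 genes, the level was 0.801, 0.765 and 0.767 CPM per kb in Ctrl and 2.31, 2.95 and 1.49 in TKO. Without *Padi3* the sum was 0.444, 0.414 and 0.367 in Ctrl and 0.291, 0.425 and 0.318 in TKO, and the groups overlapped. *Padi3* made up 44.6%, 46.0% and 52.2% of the family sum in Ctrl and 87.4%, 85.6% and 78.7% in TKO. The share of *Padi1* was 42.3%, 32.3% and 25.4% in Ctrl and 11.1%, 8.99% and 16.9% in TKO, while its own level did not differ beyond the spread. *Padi4* went from 8.69%, 15.4% and 12.2% to 0.390%, 0.109% and 2.05%.

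**Figure D2:**
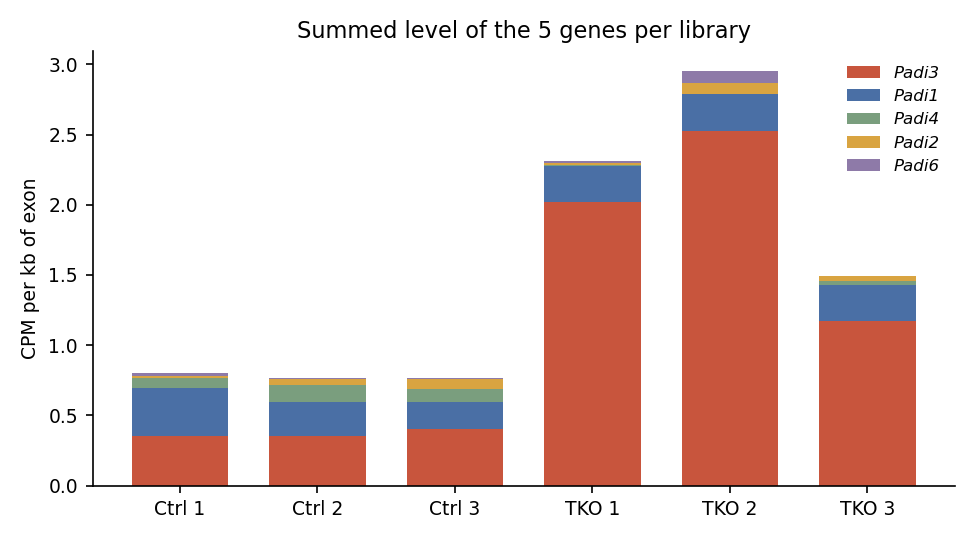
Stacked bars give the summed CPM per kb of exon of the 5 genes (vertical axis, linear from 0) in each of the 6 samples (horizontal axis), with 1 colour per gene. The TKO bars reach 2.31, 2.95 and 1.49 against 0.801 or less in Ctrl, and the added height is *Padi3*.

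The genes around the cluster were read from the same fit. Within 250 kb on either side and between the Padi genes, the annotation lists 34 other genes, of which 17 were in the count table and 10 were tested. Of these 10, 0 were called by edgeR, 0 by DESeq2 and 0 had an unadjusted p-value under 0.05, and the groups overlapped for all 10. Over all 20622 tested genes, 0.131% were called higher by edgeR, 1253 had an unadjusted p-value under 0.05 and 6.35% and 5.11% had groups apart, so counts of 0 among 10 genes are near the background and say nothing particular about the neighbours. *Spata21*, a neighbour too low to test, had 8, 8 and 4 counts in Ctrl and 0, 0 and 0 in TKO. The shares above cover tested genes only, so they give no background for counts this low. For the 10 tested neighbours the median log2 fold change was 0.05, against 0.01 over all tested genes. The most abundant were *Rcc2*, a regulator of chromosome condensation, with a log2 fold change of -0.04, and *Szrd1*, with -0.09. *Atp13a2*, a lysosomal polyamine transporter, had the second smallest p-value (log2 fold change 0.15) after the noncoding gene *Gm13032*.

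Among genes of the count table, the one that starts closest to *Padi3* is *Gm13032*, a long noncoding RNA gene 0.344 kb from the *Padi3* start. It is on the opposite strand and runs into *Padi1*, which it overlaps by 4532 bases. Its counts were 44, 18 and 40 in Ctrl and 48, 102 and 47 in TKO. Only TKO replicate 2, the sample with the most *Padi3*, stood above the Ctrl samples by a wide margin, and the log2 fold change of 0.85 (SE 0.617) did not pass (edgeR, unadjusted p = 0.198). Other genes on the opposite strand overlap *Padi2* (*Gm13031*, by 4924 bases, and *Gm46719*, by 880 bases), *Padi3* (*Gm52482*, by 1209 bases) and *Padi4* (*Gm69576*, by 2932 bases). These overlaps are of whole gene spans, and overlaps of exons were not looked at. Whether the counting used strand is not given in the sources used here. Any reads from exons shared across strands could therefore not be told apart from those of the Padi genes. *Gm13031* was at 9 counts in Ctrl replicate 1 and at 0 in the other 5 samples.

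**Figure D3:**
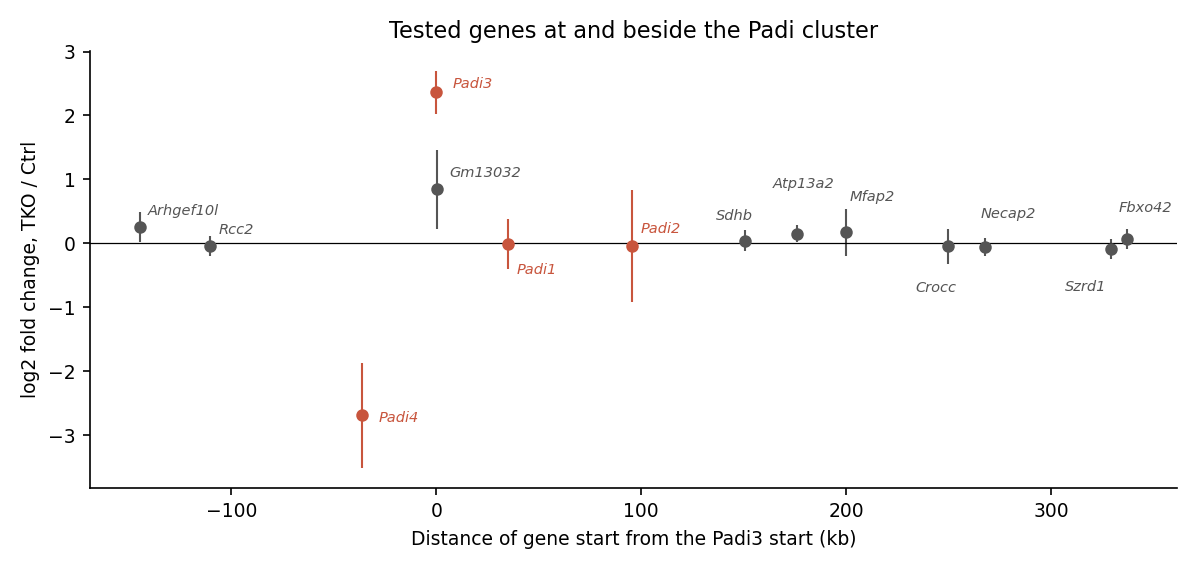
Log2 fold change of TKO over Ctrl (vertical axis, bars 1 SE) against the distance in kb of each tested gene's start from the start of *Padi3* (horizontal axis), with Padi genes in red and other genes in grey. *Padi3* at 2.36 and *Padi4* at -2.69 lie apart from their neighbours, which range from -0.09 to 0.85.

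Proteins that the family acts on in epidermis and hair were followed with a list of 12 genes, 10 of them tested. None was called by edgeR or DESeq2, 0 were higher and 3 lower at an unadjusted p-value under 0.05 (416 of all 20622 tested genes were lower at that level), and the median log2 fold change was -0.10. The 3 were the suprabasal keratins *Krt1* (log2 fold change -0.51), *Krt10* (-0.42) and *Krt2* (-1.68), and the smallest adjusted p of the list was 0.658. *Krt1* was at 9973, 9778 and 10073 CPM in Ctrl and at 8516, 6100 and 6305 CPM in TKO, so the groups did not overlap. *Krt10* was at 8073, 7868 and 9475 CPM against 7258, 5694 and 6094 CPM, again without overlap. With *Flg2*, a relative of filaggrin that reached at most 0.302 CPM, 3 of the 10 had every TKO sample below every Ctrl sample, beside 5.11% of all tested genes.

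Filaggrin itself was hardly present. *Flg* was at 0.192, 0.0155 and 0.269 CPM in Ctrl and at 0.0510, 0.181 and 0.329 CPM in TKO, overlapping between the groups. Trichohyalin, the hair follicle substrate of *Padi3*, was at 7.77, 7.89 and 6.23 CPM in Ctrl and at 9.64, 13.1 and 5.53 CPM in TKO. *Tchh* was therefore highest in TKO replicate 2 and lowest of all in TKO replicate 3, and its log2 fold change of 0.37 (SE 0.301) did not pass. *Flg* and *Tchh* are named as best known targets, and were chosen after their values were seen.

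Of 13 genes for the processing and breakdown of filaggrin, all were tested and 0 were called, with a median log2 fold change of -0.18. The most abundant were the calpain *Capn1* (-0.18) and the protease *Asprv1* (-0.19), which cleaves profilaggrin. The smallest p-values were those of the membrane protease *St14* (0.36) and the kallikrein *Klk7* (-1.44). Among 15 genes of the inner root sheath and hair shaft, 9 were tested, 0 were called and the median was 0.09. The most abundant of them was *Gata3*, a transcription factor of the inner root sheath (0.07), followed by the transglutaminase *Tgm3* (-0.29). The hair keratin *Krt35* had the smallest p-value, with 10, 24 and 33 counts in Ctrl and 1, 4 and 5 in TKO (log2 fold change -2.74), followed by the desmosomal cadherin *Dsc2* (0.53). Every TKO sample was below every Ctrl sample for 1 of the 9 tested genes, *Krt35*, beside 5.11% of all tested genes. A count of 0 calls in lists of this size is near the share called over all tested genes (0.131%) and is not a result about the lists.

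Of 8 egg genes listed with *Padi6*, 3 were tested and 0 called, and *Nlrp5*, *Ooep*, *Khdc3*, *Nlrp2* and *Zp3* were too low to test. Those tested were *Zbed3* (log2 fold change 0.30), *Tle6* (0.10) and *Gdf9* (0.40). The arginine methyltransferases, which modify the same residue in another way, were also followed. Of 9, 8 were tested, 0 were called and the median log2 fold change was -0.01. *Prmt1*, the main enzyme of asymmetric dimethylation, was at 0.01 and *Carm1*, another methyltransferase of this kind, at 0.19, and these were the most abundant. *Prmt8*, too low to test, had 6, 2 and 13 counts in Ctrl and 0, 0 and 0 in TKO, and no background share was taken at counts this low. *Prmt7* followed *Carm1* in order of p-value and was at -0.13.

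**Figure D4:**
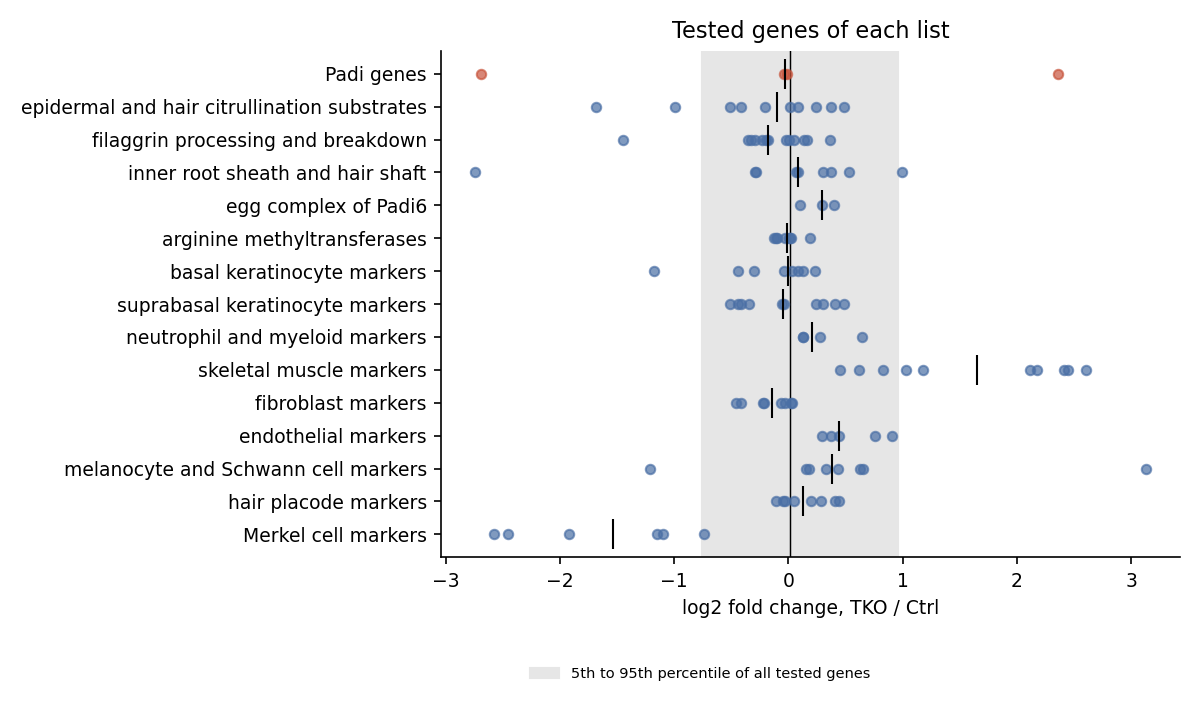
Log2 fold changes of TKO over Ctrl (horizontal axis) for the tested genes of each list (rows), with 1 point per gene and a vertical bar at the list's median. The shaded band spans the 5th to 95th percentile of all tested genes (-0.75 to 0.96) around their median (line): *Padi3* and *Padi4* lie outside it on either side, skeletal muscle markers lie to the right of the line and Merkel cell markers to the left.

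Markers of keratinocyte layers and of other cells that a sort could hold were compared in the same samples. Of 8 basal markers 0 were called by edgeR, with a median log2 fold change of 0.00. DESeq2 called *Krt15* lower (-1.18, edgeR adjusted p = 0.185), beside 0.102% of all tested genes. The most abundant basal markers were *Krt5* (-0.44) and *Krt14* (-0.30). Of 10 suprabasal markers 0 were called and the median was -0.04. Their summed level was 19221, 19075 and 20930 CPM in Ctrl and 17078, 12936 and 13666 CPM in TKO, with no overlap between the groups. *Krt1* and *Krt10* made up between 90.7% and 93.9% of this sum in each sample. The other 8 markers summed to 1175, 1428 and 1382 CPM in Ctrl and to 1304, 1142 and 1267 CPM in TKO, and the groups overlapped. The lower sum beside the higher *Padi3* values in TKO was thus that of *Krt1* and *Krt10*. The part of differentiation in the *Padi3* result was not tested.

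Some skeletal muscle markers were higher in the TKO samples, which had more *Padi3*. Of 10 markers, all tested, edgeR called 1 higher, *Myh3*, an embryonic myosin heavy chain (log2 fold change 2.61, adjusted p = 0.0211), beside 0.131% of all tested genes. DESeq2 called 5 higher, *Myh3*, *Actn2*, *Myh8*, *Acta1* and *Ttn*, beside 0.936%. The groups were apart for 4 of the 10, beside 6.35% of all tested genes, and overlapped for *Myod1*, *Myog*, *Des*, *Ckm*, *Acta1* and *Tnnt3*. The list median was 1.65. The most abundant was *Ttn*, the giant sarcomere protein titin, at 1.33, 7.41 and 3.90 CPM in Ctrl and 26.1, 22.1 and 20.9 CPM in TKO. The list sum was 4.37, 12.0 and 8.60 CPM in Ctrl and 36.4, 38.3 and 38.0 CPM in TKO, of which *Ttn* was 59.4%. None of the 10 was at 0 in a group, and the myogenic regulator *Myod1* stayed between 0.0278 and 0.353 CPM. Their part in the *Padi3* result was not tested.

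The tested Merkel cell markers had lower values in the TKO samples, which had less *Padi4*. Merkel cells are touch-sensing cells of the basal layer that derive from keratinocytes. Of 7 markers 6 were tested, 0 were called by edgeR and 2, *Krt8* and *Isl1*, were called lower by DESeq2, beside 0.102% of all tested genes. All 6 had every TKO sample below every Ctrl sample, as had 5.11% of all tested genes, with a median log2 fold change of -1.54 and a smallest adjusted p of 0.113, for *Krt8* (log2 fold change -1.92). The sum was 21.2, 24.4 and 23.3 CPM in Ctrl and 9.53, 11.8 and 12.2 CPM in TKO, of which the mechanosensitive channel *Piezo2* was 63.2%. *Atoh1*, the transcription factor that defines the cells, was at 0.828, 1.28 and 1.58 CPM in Ctrl and at 0.144, 0.0453 and 0.477 CPM in TKO. Among TKO samples, *Padi4* was lowest in replicate 2 and highest in replicate 3, an order that *Atoh1* and *Sox2* shared and that *Krt8*, *Krt18*, *Isl1* and *Piezo2* did not. The part of Merkel cells in the *Padi4* values was not tested.

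**Figure D5:**
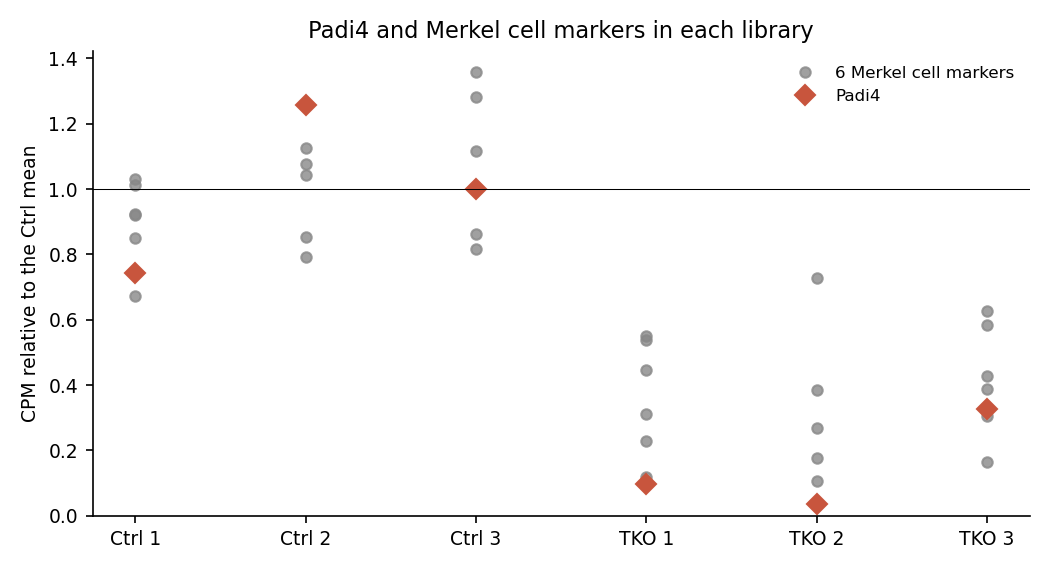
CPM divided by the Ctrl mean of the same gene (vertical axis, linear from 0) in each of the 6 samples (horizontal axis), for *Padi4* (red diamonds) and 6 Merkel cell markers (grey points, 1 per gene). In TKO, *Padi4* lies at 0.0963, 0.0342 and 0.326 of its Ctrl mean, and all 6 markers lie below their Ctrl means.

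Neutrophils, the blood cells in which *Padi4* is best known, left little trace. Of 10 neutrophil and myeloid markers 4 were tested and 0 were called, with a median log2 fold change of 0.21. *Ly6g* and *Retnlg* were at 0 in all 6 samples, and *Mpo*, *Elane*, *Camp* and *Ngp* were too low to test. *Mpo* had 10, 0 and 0 counts in Ctrl and *Ngp* 8, 0 and 0, and both were at 0 in TKO. *Elane* had 2, 0 and 0 counts in TKO and *Camp* 0, 0 and 19, and both were at 0 in Ctrl. The sum was 18.6, 39.0 and 10.9 CPM in Ctrl and 4.72, 68.0 and 14.5 CPM in TKO. Its most abundant gene was the macrophage receptor gene *Csf1r*, at 50.1% of the sum, followed by *Lyz2*. The sum therefore does not stand for neutrophils. The sample with the highest myeloid sum, TKO replicate 2, had the lowest *Padi4*, and the sample with the second highest, Ctrl replicate 2, had the highest *Padi4*. The part of neutrophils in the *Padi4* values was not tested.

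The other lists showed no calls by edgeR. Fibroblast markers (8 tested, median -0.14) summed to 1710, 4315 and 3563 CPM in Ctrl and 2829, 2933 and 3245 CPM in TKO, led by *Col1a1*. Endothelial markers (5 tested, median 0.45) summed to 27.7, 25.3 and 37.7 CPM against 24.5, 60.3 and 51.9 CPM, led by *Cdh5* (0.91). Melanocyte and Schwann cell markers (8 tested, median 0.38) were led by *Mbp*. DESeq2 called 1 of the 8 higher, the melanocyte gene *Mlana* (log2 fold change 3.13), beside 0.936% of all tested genes. Every TKO sample was above every Ctrl sample for *Mlana*, as for 6.35% of all tested genes. Hair placode markers (8 tested) had a median of 0.12. None of these sums separated the groups the way *Padi3* or *Padi4* did, since the groups overlapped in all 4 sums.

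The genes most like *Padi3* across the 6 samples were found from Pearson's r of log2(CPM + 0.5) over all tested genes. They were *Nkain1* (r = 0.999), *4732491K20Rik* (0.996), *D7Ertd128e* (0.995), *Gm45056* (0.994) and *9330154K18Rik* (0.993). *Nkain1* encodes a membrane protein that binds the sodium pump, lies on chromosome 4 outside the Padi cluster, and moved little, from 2.07, 2.07 and 2.09 CPM in Ctrl to 2.66, 2.73 and 2.43 CPM in TKO. The other 4 are long noncoding RNA genes, of which *D7Ertd128e* had 0, 0 and 9 counts in Ctrl and 292, 536 and 146 in TKO. With the group means removed, r was between 0.956 and 0.994 for these 5 genes. Picking genes by r over all 6 samples favours such values, so they are no separate check. All 5 were ordered like *Padi3* among the TKO samples, with replicate 3 lowest. None of the 5 was called by edgeR. DESeq2 called *D7Ertd128e* and *Gm45056* higher, beside 0.936% of all tested genes. Genes chosen for values like those of *Padi3* tend to differ between the groups, so these calls are a description only. There were 150 genes with r above 0.95, the 6 samples form 2 groups, and r across them is a description only. Within the family, r with *Padi3* was 0.01 for *Padi1*, 0.08 for *Padi2* and -0.97 for *Padi4*. With the group means removed these were -0.02, 0.36 and -0.71.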

How the data were processed

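The authors sorted Epcam+ α6+ cells, depleted rRNA, trimmed paired-end reads with fastp 0.23.4, mapped them with STAR 2.7.11b and deposited raw counts per Ensembl gene, 1 column per library, not pooled. The methods name GRCm39 and the processing notes GRCm38, and the counting program and annotation are not given in the sources used here. Of 55536 identifiers, 51477 matched GENCODE vM39, which gave symbols, positions and exon lengths. The raw counts were tested with edgeR 4.0.16 in R 4.3.3 (filterByExpr with a minimum count of 10 and total of 15, TMM, glmQLFit robust, glmQLFTest) on all 6 samples. DESeq2 1.42.0 (Wald test) was an alternative, with other filters, size factors, sex, the replicate block and each sample left out. The code was tested on simulated data.

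The members, lists and motifs were chosen with earlier results of these data known. Genes were named from all members, the 3 targeted genes, of each list and of the genes beside the cluster those called, the 2 with the smallest p and the 2 with the highest CPM, and the 5 genes most like *Padi3*. Other genes named (*Trp63*, *Flg*, *Flg2*, *Tchh*, *Atoh1*, *Sox2*, muscle and Merkel genes given by overlap or order, genes too low to test or at 0, overlapping genes, and those DESeq2 called) were chosen after their values were seen. Replicate numbers come from the labels. Deviations from the group means correlated at 0.188, 0.187 and 0.272 between Ctrl and TKO samples of the same number. Between samples of different number the correlations ran from -0.243 to 0.0191. Deviations from a group mean are tied to each other, so these values do not settle whether the numbers mark pairs. The numbers were used as a block in an alternative fit, and the fit without them stayed the main one. With the replicate block, 45 genes were called in place of 27. Depth was 102159175 to 136515436 counts per sample, and the floor of 3 counts was 0.0232 to 0.0303 CPM. Figures were drawn with matplotlib 3.10.9 in Python 3.11.15.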

Additional observations from a re-analysis of the deposited data

How the results depend on the processing

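The log2 fold changes of *Padi3* (2.11 to 2.62) and *Padi4* kept their direction in each alternative that tested them (14 for *Padi3* and 13 for *Padi4*, which was not tested with at least 10 counts in every library), and *Padi1* and *Padi2*, near 0, did not. The number of Padi genes called was 1 and fell to 0 with at least 10 counts in every library, with sex as a term and at an adjusted p under 0.01; it was 0 to 1 with 1 sample left out, being 1 only without TKO replicate 3. Leaving out 1 sample gave -0.19 to 0.22 for *Padi1*, -0.78 to 0.56 for *Padi2*, 2.11 to 2.62 for *Padi3* and -3.89 to -2.23 for *Padi4*, which was -3.02 with the replicate block and -2.92 with sex as a term. The replicate block raised the genes called over the whole table from 27 to 45 and changed no call of a Padi gene, a list or a neighbour. That number was 214 with DESeq2 on the same genes, 227 with its default workflow, 235 with no low-count filter (which also moved the median log2 fold change of all genes to -0.11), 9 with at least 10 counts in every library, 11 at an adjusted p under 0.01, and 7 (without Ctrl replicate 2) to 81 (without TKO replicate 3) with 1 sample left out. List genes called went from 1 to 9, 10 and 8 with DESeq2, its default workflow and no filter, to 0 with sex as a term or at 0.01, and ranged from 0 to 2 with 1 sample left out. *Padi4* was at 0.175 CPM per kb in Ctrl by its longest transcript. By Spearman's rho 2 of the 5 genes most like *Padi3* were the same, and 90 genes tied at a rho of 1. No gene beside the cluster was called in any alternative. The causes were not tested.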
